A study of Homo sapiens with 3 samples.

Results

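INS and GCG polyhormonal cells are barcodes in which the transcripts of insulin (INS) and glucagon (GCG) were abundant together. A barcode was taken as polyhormonal when it held 1000 to 40000 UMIs (unique molecular identifiers, 1 per captured transcript), at least 500 genes and at most 20% mitochondrial UMIs. The members were chosen by 3 measured values: they had to hold INS and GCG at 25 or more, and GHRL (ghrelin) under 25, per 10000 UMIs of the cell. These limits gave 632 members among the 25463 barcodes that passed the UMI, gene and mitochondrial limits. All were differentiated toward beta cells in culture from H1, an established line of human embryonic stem cells. The study set 3 genotypes side by side: unedited cells (WT), cells with 1 altered copy of PAX6 (HET, PAX6+/-) and cells with no intact copy (KO, PAX6-/-). Each genotype was 1 droplet library (10x Genomics), so genotype and library cannot be told apart, and p-values and standard errors are left out. The sources used here give neither the position of the PAX6 lesion nor the number of edited clones, and all intervals below are exact 95% intervals for counting error only.

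In the adult islet, beta cells make insulin, which lowers blood glucose, and alpha cells make glucagon, which raises it. Cells that hold both transcripts are known from the fetal pancreas and from stem cell differentiations, and many of them carry other islet hormones too. PAX6 is a paired-box and homeobox transcription factor of islet endocrine cells that binds regulatory DNA of INS and GCG. The homeobox factors IRX1 and IRX2 mark the alpha side of islet fate, and PAX4 and NKX6-1 mark the beta side.

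The DNA just before the INS and GCG genes is shown because these 2 transcripts define the cells. INS (ENSG00000254647) lies on chromosome 11 from 2159779 to 2161341 and GCG (ENSG00000115263) on chromosome 2 from 162142873 to 162152404, both on the minus strand in GENCODE 29. The stretches printed are the part of the RefSeq promoter window (GRCh38.p14) before every GENCODE 29 transcript of the gene, chr11:2161342-2161459 and chr2:162152405-162152497, 5′ to 3′ on the minus strand. Capitals mark TAAT on either strand, the core that many homeobox factors read.
INS: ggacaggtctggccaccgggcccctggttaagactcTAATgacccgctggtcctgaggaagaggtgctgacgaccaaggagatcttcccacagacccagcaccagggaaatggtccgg
GCG: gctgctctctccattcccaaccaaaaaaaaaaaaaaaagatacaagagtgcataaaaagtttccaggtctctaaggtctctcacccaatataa
TAAT stood once in the INS stretch and was not found in the GCG stretch. These stretches hold 118 and 93 of the 250 bases before the RefSeq start. The bases nearest that start lie inside a GENCODE 29 transcript and were not searched, so the counts do not describe the whole promoter. In the same stretch of all 27305 RefSeq promoter windows, TAAT was present in 34.2% at the INS length and in 29.9% at the GCG length. A match is a description of the letters only.

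The share of members among all kept barcodes was highest in WT and lowest in KO. Members were 464 of 8488 kept WT barcodes (5.47%, 4.99 to 5.97%), 143 of 8294 HET barcodes (1.72%, 1.46 to 2.03%) and 25 of 8681 KO barcodes (0.288%, 0.186 to 0.425%). The 3 binomial intervals did not overlap, but they hold counting error only and, with 1 library per genotype, do not compare genotypes. INS-only cells, which passed the same limits with INS at 25 or more and GCG, SST (somatostatin) and GHRL each under 25, numbered 329 in WT, 116 in HET and 128 in KO. GCG-only cells, with INS in place of GCG under 25, numbered 125, 20 and 7. Barcodes with little granin RNA (granin-low, defined below) numbered 6369 of 8488 in WT, 7468 of 8294 in HET and 7296 of 8681 in KO. The kept barcodes thus also differed in their granin-bearing part, and its weight in the share of members was not tested. With every cell thinned to 3000 UMIs, the shares were 5.10%, 1.62% and 0.271%; 220 WT, 122 HET and 184 KO barcodes were too shallow and were left out. In the files, fewer cells of a kind and loss of such cells before capture look alike.

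**Figure D1:**
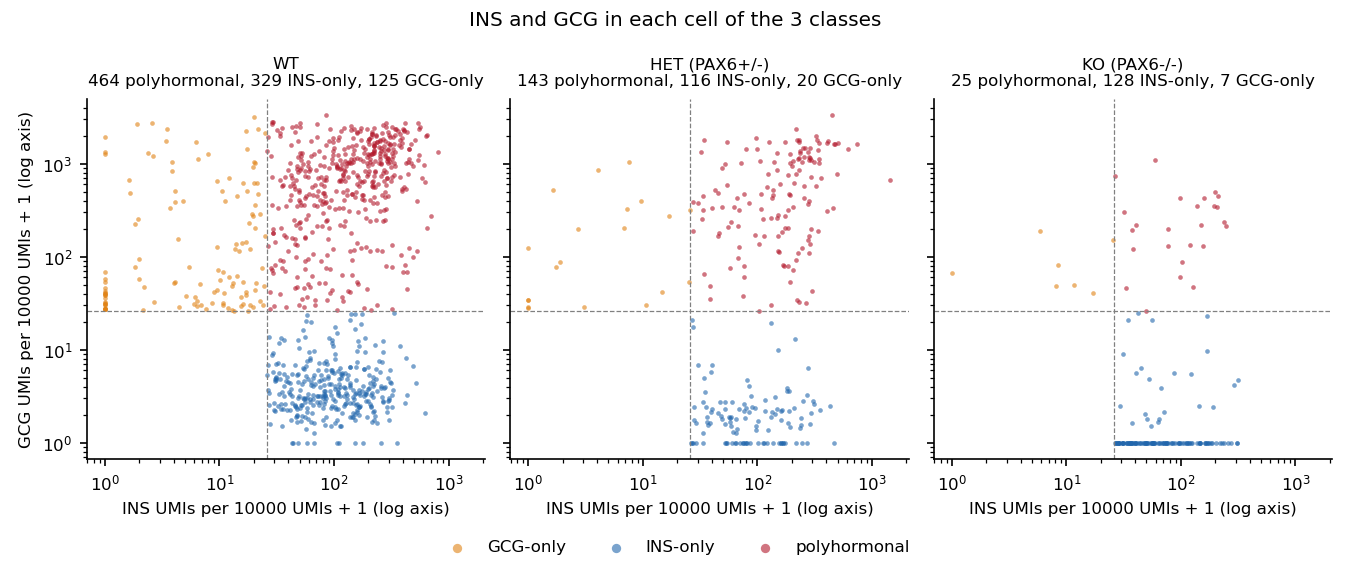
Each point is 1 cell of the polyhormonal (red), INS-only (blue) or GCG-only (orange) class, with INS on the horizontal and GCG on the vertical log axis, per 10000 UMIs plus 1, in 1 panel per library. The dashed lines stand at the minimum of 25; the red points number 464 in WT, 143 in HET and 25 in KO.

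The members were somewhat shallower than INS-only cells and all kept barcodes. Their median UMI count was 13291.5 in WT, 13174 in HET and 12360 in KO, against 13499, 14091 and 12687 in INS-only cells and 14188, 13855 and 15051 in all kept barcodes. GCG-only cells had medians of 10941, 13922 and 10157, below the members in WT and KO and above them in HET. Under 3000 UMIs were held by 37 of the 464 WT members and by 220 of all 8488 kept WT barcodes. The median mitochondrial share was 6.01%, 7.57% and 8.74% in members and 6.64%, 9.10% and 8.45% in INS-only cells, so HET and KO were above WT in both classes. The doublet caller Scrublet marked no barcode in any of the 3 libraries at its automatic threshold and so did not work here, and doublets were kept. The highest 8% of its scores held 57 WT members (12.3%), 16 HET members (11.2%) and 4 KO members (16%), and 14.3%, 14.7% and 7.03% of the INS-only cells. Libraries shared 26 to 43 barcodes pairwise, and no barcode was a member in 2 libraries.

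Free hormone RNA was low beside the members' levels. It was read in barcodes whose granins (CHGA, CHGB, SCG2, SCG3 and SCG5, the acidic proteins of hormone granules) summed to under 5 per 10000 UMIs. There the median of GCG was 2.12 per 10000 in WT, 0.619 in HET and 0 in KO, and the median of INS was 0.614, 0 and 0. Only 2 of 6369 WT, 2 of 7468 HET and 1 of 7296 KO granin-low barcodes had both hormones at 25 or more (0.0314%, 0.0268% and 0.0137%), at median depths of 14622, 13999.5 and 15647.5 UMIs. The members' own granin sum had a median of 112 per 10000 in WT, 119 in HET and 76.0 in KO, and 2, 2 and 0 members were granin-low.

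The members carried the endocrine markers, and a neuronal marker sum above that of granin-low barcodes. A sum of 7 endocrine markers, the granins with INSM1 and NEUROD1, had a median of 119 per 10000 UMIs in WT members, 124 in HET and 88.3 in KO. The medians of the mesenchymal, acinar, cycling, pluripotent, immune and endothelial marker sums were 0 in the members of all 3 libraries, and PECAM1 and CDH5 of endothelium had no UMI in any member. The duct sum (KRT19, KRT7, SOX9, CFTR, SPP1) had a median of 6.27, 9.95 and 7.18 per 10000, below 14.7, 23.3 and 12.8 in granin-low barcodes. The neuronal sum (PHOX2A, TLX2, CHRNA3, STMN2) had a median of 9.43 in WT members, 9.33 in HET and 23.9 in KO, against 16.4, 16.5 and 17.1 in INS-only cells and 0 in the granin-low barcodes of each library. In WT and HET members the UMIs of the neuronal sum were mostly those of STMN2. Where GCG was from 1 to under 10 times INS, WT members held 4351 UMIs of STMN2, 121 of PHOX2A, 30 of CHRNA3 and 17 of TLX2. In HET members of this range the same genes held 1326, 14, 2 and 4. CHRNA3 was at 0 in KO members. The liver sum (ALB, AFP, FGB, APOA2) had a median of 7.81, 12.5 and 3.24, against 57.6, 41.8 and 51.9. INS and GCG of the label were fixed by the rule, so only its other markers, PYY, PPY and IAPP, describe the members further. In WT and HET all of these were detected. Their medians per 10000 were 31.9 and 12.6 for PYY, 1.61 and 0 for PPY and 0 and 0 for IAPP. In KO the label holds less beyond INS and GCG, since IAPP had no UMI, PPY had 2 and PYY had 180 UMIs over all 25 members.

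The rule fixed a floor for INS and GCG, so their levels are given without a test. GCG exceeded INS in most members. INS had a median of 139.6 per 10000 UMIs in WT members (range 25.05 to 803), 184 in HET (26.2 to 1447) and 102 in KO (25.5 to 249). GCG had a median of 732 in WT (25.7 to 3307), 466 in HET (25.3 to 3308) and 215 in KO (25.4 to 1101). The median GCG to INS ratio of UMIs was 4.84 in WT, 3.61 in HET and 1.81 in KO. Near the minimum, the lowest INS inside was 25.05, 26.2 and 25.5 and the highest just outside 24.0, 24.6 and 24.6 in WT, HET and KO. For GCG the lowest inside was 25.7, 25.3 and 25.4, and the highest just outside was 23.9, 21.7 and 23.7.

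Further hormones were common in WT and HET members and rare in KO members. PYY (peptide YY, a hormone of gut and islet cells) reached 25 per 10000 in 253 of 464 WT members (54.5%, 49.9 to 59.1%), 54 of 143 HET members (37.8%, 29.8 to 46.2%) and 1 of 25 KO members (4%, 0.101 to 20.4%). In INS-only cells the same share was 13.7%, 8.62% and 1.56%, and in granin-low barcodes it was 0.0314% in WT and 0 in HET and KO. SST reached 25 in 82 WT members (17.7%), 26 HET members (18.2%) and 1 KO member (4%). PPY (pancreatic polypeptide) reached it in 75 (16.2%), 14 (9.79%) and 0 members, and IAPP (amylin, released with insulin) in 37 (7.97%), 6 (4.20%) and 0. A count of 0 among 25 members has an exact upper bound of 13.7%. The WT and HET intervals overlapped for SST, PPY and IAPP, and those for PYY did not. These intervals hold counting error among the cells of 1 library each and do not compare genotypes. None of these 4 hormones reached 25 in 151 WT, 67 HET and 23 KO members, 1 did in 199, 55 and 2, 2 did in 94, 18 and 0, and 3 did in 20, 3 and 0.

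**Figure D2:**
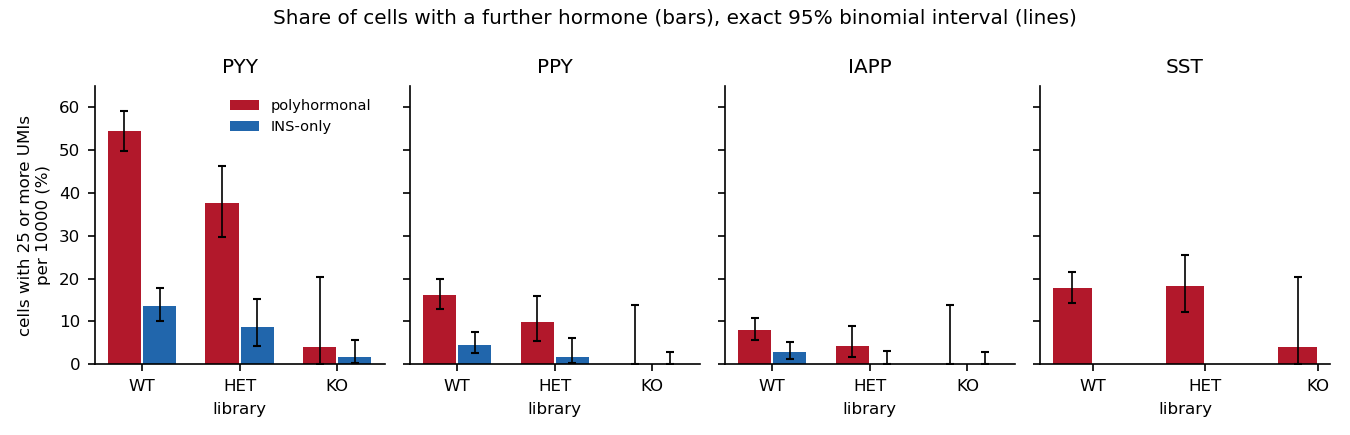
Bars give the share of cells (%) with 25 or more UMIs per 10000 of PYY, PPY, IAPP or SST in polyhormonal (red) and INS-only (blue) cells of each library, and lines give the exact 95% binomial interval. INS-only cells are left out for SST, which their rule used; the PYY share is 54.5% in WT members, 37.8% in HET and 4% in KO.

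Members with PYY were also richer in GCG and INS. In WT the 253 members with PYY at 25 or more had a median GCG of 846 and INS of 159 per 10000, and the other 211 had 644 and 119. In HET the 54 members with PYY had 901 and 234, and the other 89 had 377 and 151. Members with SST at 25 or more had a median GCG of 632 in WT and 519.6 in HET, beside 747 and 462 in those under 25. The HET values come from 26 and 117 cells, and GCG of all HET members had quartiles of 186 and 1137. The direction in HET is therefore not resolved.

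The balance of the 2 defining hormones varied widely among members. The GCG to INS ratio was under 1 in 57 WT, 28 HET and 6 KO members, from 1 to under 10 in 309, 97 and 17, and 10 or more in 98, 18 and 2. It ran from 0.0821 to 99.6 in WT. The class sums of the outer ranges were compared in WT and HET, and these values are CPM (a gene's counts set to a fixed library total) scaled with TMM, the trimmed mean of M-values. Of 3387 WT genes with at least 50 CPM in 1 of the ranges, 44 (1.30%) were higher and 35 (1.03%) lower, by 2-fold or more, at the ratio of 10 or more; in HET, with 18 cells in the upper range, the counts were 167 (4.78%) and 179 (5.12%) of 3493. KO had too few cells for these sums.

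Neuronal genes were among those lower toward GCG. NEFM (neurofilament medium chain) stood at 1495, 915 and 667 CPM over the 3 rising ranges of the ratio in WT and at 1306, 446 and 286 in HET. STMN4, a stathmin that binds tubulin, stood at 76.0, 45.6 and 22.5 in WT and at 56.9, 20.1 and 4.03 in HET. GHRH (growth hormone releasing hormone) stood at 65.1, 18.9 and 5.62 in WT and at 51.2, 18.1 and 4.03 in HET. All 3 genes thus stepped down over the ranges in WT, and NEFM did in HET. The upper HET range rested on 1 UMI each for STMN4 and GHRH in 18 cells. RGS2, a regulator of G protein signalling, GNG3, a G protein subunit, and TMCC3 completed the 6 named genes that were lower at the ratio of 10 or more.

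The 6 named genes higher toward GCG did not all peak in the upper range. TNFSF10 (TRAIL, a ligand of death receptors) stood at 14.9, 29.8 and 55.5 CPM in WT and at 31.3, 34.1 and 88.6 in HET. HLA-DPB1, an HLA class II chain, stood at 32.6, 135 and 122 in WT and at 22.8, 136 and 113 in HET, highest in the middle range of both. The other named genes of this direction were WWOX, ANKRD1, SPP1 (osteopontin) and TPPP3. In granin-low barcodes of WT and HET, HLA-DPB1 stood at 703 and 407 CPM, ANKRD1 at 607 and 451, SPP1 at 1164 and 1916 and TNFSF10 at 124 and 60.7. Of the liver markers, FGB stood at 411, 938 and 856 CPM over the ranges in WT and at 222, 797 and 358 in HET. AFP stood at 71.9, 174 and 236 in WT and at 59.8, 296 and 56.4 in HET. Both markers were lowest at a ratio under 1 in WT, and their part in these differences was not tested. TTR (transthyretin, abundant in alpha cells) stood at 7116, 12164 and 24846 in WT and at 8289, 15585 and 13000.4 in HET.

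Against INS-only cells of the same library, members of WT and HET held more IRX1, IRX2 and TTR, genes of alpha cells, and less NKX6-1, PAX4, PDX1 and MNX1, transcription factors of beta cells. The comparison is a description, since the classes were cut by hormone level. Of 3532 WT genes with at least 50 CPM in a class, 58 (1.64%) were higher and 49 (1.39%) lower, by 2-fold or more, in members. In HET the counts were 87 (2.42%) and 64 (1.78%) of 3589, and in KO, with 25 members, 68 (1.95%) and 136 (3.89%) of 3493. WT and HET shared 38 of the higher genes (65.5% of the WT and 43.7% of the HET genes) and 30 of the lower ones (61.2% and 46.9%). The split depends on scaling: the lower genes were 45.8% of those past 2-fold in WT and 42.4% in HET with TMM, and 64.5% and 67.5% with plain CPM. Plain CPM moved the median log2 ratio of all genes from -0.02 to -0.19 in WT and from 0.01 to -0.19 in HET, and the named genes kept their direction under either scaling.

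**Figure D3:**
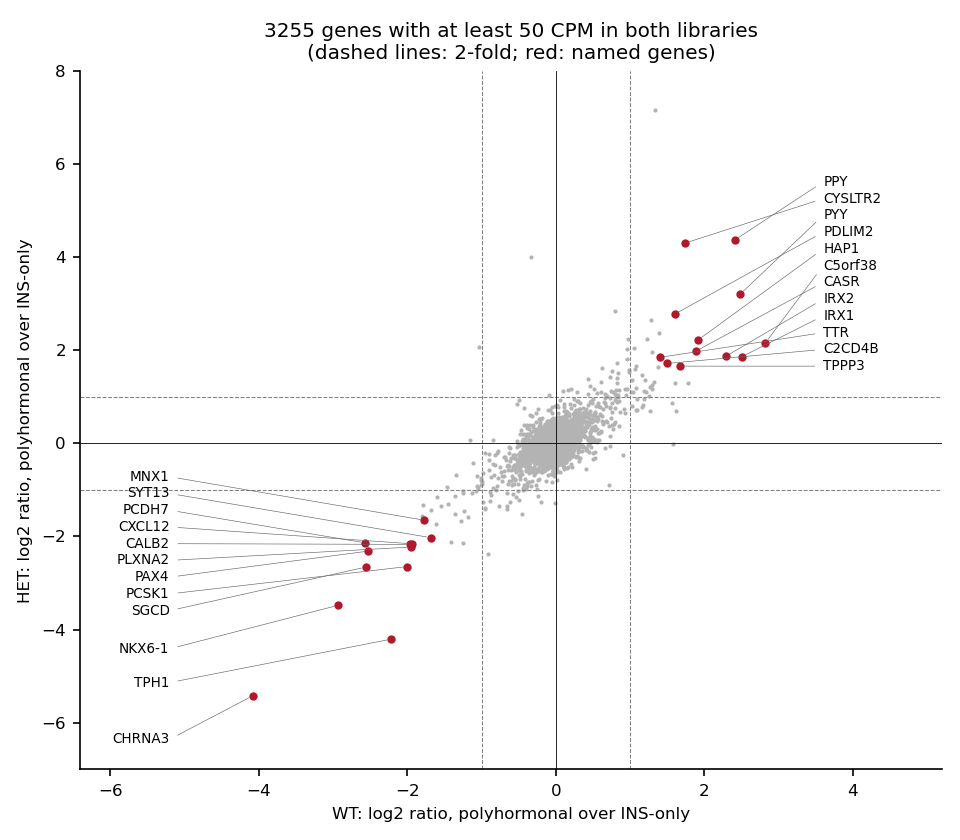
Each point is 1 of 3255 genes with at least 50 CPM in a class of both WT and HET, with the log2 ratio of polyhormonal over INS-only cells in WT on the horizontal and in HET on the vertical axis. The dashed lines mark 2-fold and the 24 named genes are red; those 12 higher lie in the upper right and those 12 lower in the lower left.

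On the alpha side, IRX1 and IRX2 were among the 12 named genes. IRX2, a homeobox factor of alpha cells, stood at 141 CPM in members and 28.7 in INS-only cells of WT, at 140.1 and 38.1 in HET, and at 77.0 and 58.4 in KO. This was 4.92-fold (4.11 to 5.91) higher in WT and 3.68-fold (2.84 to 4.83) in HET, while the KO ratio of 1.32-fold (0.851 to 1.99) did not reach 2-fold. IRX1, its neighbour in the same gene cluster, stood at 59.2 and 10.4 CPM in WT, 52.4 and 14.4 in HET and 17.4 and 16.2 in KO. Few UMIs lay behind the value of the KO members, so the KO ratio of IRX1 is not resolved. C5orf38, which lies head to head with IRX2, was 7.07-fold (5.34 to 9.53) higher in WT and 4.47-fold (2.99 to 6.89) in HET. TTR stood at 15277 and 5768 CPM in WT, 15279 and 4232 in HET and 10179 and 5495 in KO.

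IRX1 and IRX2 were therefore at least 2-fold above INS-only cells in WT and HET. On the summed counts they were within 2-fold of INS-only cells in KO, where the ratio of IRX1 is not resolved. The alpha marker sum (IRX1, IRX2, TTR, GC, LOXL4) had a median of 62.9, 64.0 and 122.5 per 10000 in WT, HET and KO members. In INS-only cells it was 41.1, 32.4 and 26.4, so the sum was higher in members in KO too. TTR made up most of this sum in both classes, so it largely repeats TTR. Summed over all cells, it was 141, 142 and 114 in members and 60.7, 47.0 and 62.9 in INS-only cells. KO members were thus above WT members by the median and below them by the summed value. Of the alpha cell genes with at least 5 CPM, 6 of 16 were at least 2-fold higher in WT (2.34% of all genes at this minimum), 4 of 15 in HET (4.61%) and 2 of 15 in KO (6.30%). The median log2 ratio of the list was 0.28, 0.30 and 0.13, beside -0.00, 0.00 and -0.07 over all genes. POU3F4 (BRN4, a POU factor of alpha cells) went the other way in WT, at 2.32 CPM in members and 6.03 in INS-only cells, and stood at 37.2 and 15.6 in KO. FAP, a protease that alpha cells also make, stood at 5.64 CPM in WT members and 0.201 in INS-only cells. FAP rested on 1 UMI in WT INS-only cells, and its ratio had an interval of 4.71 to 1141.

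The values for granin-low barcodes below are plain CPM of their summed counts. On the beta side, NKX6-1 and PAX4 were low in members. NKX6-1 (a homeobox factor that keeps beta cell identity) stood at 20.1 CPM in members and 153 in INS-only cells of WT, 11.9 and 133 in HET, and 54.6 and 118 in KO. It was 7.64-fold (6.30 to 9.34) lower in WT and 11.2-fold (7.28 to 17.9) lower in HET. In granin-low barcodes NKX6-1 stood at 21.7 CPM in WT, 12.2 in HET and 8.09 in KO, so the WT and HET members were close to the granin-low level. PAX4 (a paired-box factor of beta cell precursors) stood at 20.7 and 119.5 CPM in WT, 25.4 and 126 in HET, and 54.6 and 221 in KO. PAX4 was 5.76-fold (4.74 to 7.05) lower in WT, 4.98-fold (3.65 to 6.91) in HET and 4.05-fold (2.63 to 6.53) in KO. In KO members, NKX6-1 was 2.16-fold (1.39 to 3.52) lower, and this difference was under 2-fold with stricter barcode limits, with cells weighted alike or in members with SST under 25.

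PDX1 and MNX1, homeobox factors of beta cells, followed the same order. PDX1 stood at 96.6 and 282 CPM in WT, 70.6 and 179 in HET and 86.9 and 107 in KO. MNX1 stood at 25.9 and 88.4, 18.7 and 58.6, and 17.4 and 49.2. Of the beta cell transcription factors with at least 5 CPM, 4 of 18 were at least 2-fold lower in WT (2.10% of all genes), 5 of 18 in HET (4.68%) and 4 of 18 in KO (11.5%), and none was 2-fold higher. The list's median log2 ratio was -0.35, -0.33 and -0.18. PAX6 itself stood at 683 and 357 CPM in WT, 435 and 278 in HET and 802 and 416 in KO, so it was higher in members of every library. PAX6 transcript persisted in KO, and with the lesion's position not given it does not check the genotype label.

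**Figure D4:**
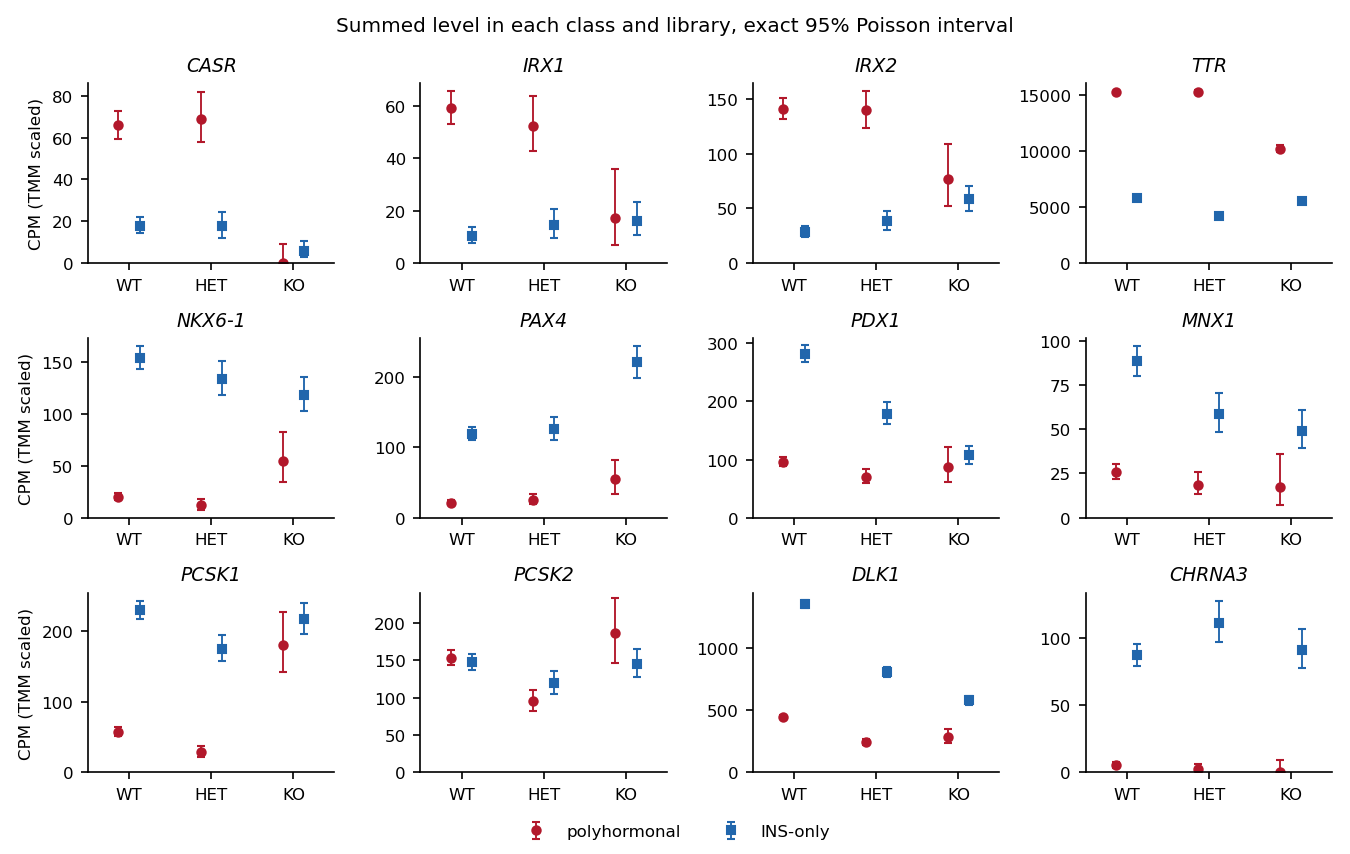
TMM-scaled CPM of 12 genes in polyhormonal (red circles) and INS-only (blue squares) cells of each library, with the exact 95% Poisson interval of the summed count. The red circles lie above the blue squares for CASR, IRX1 and IRX2 in WT and HET and below them for NKX6-1, PAX4, PDX1, MNX1 and DLK1.

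Within single cells, NKX6-1 was seldom detected in WT and HET members. At least 1 UMI of NKX6-1 was seen in 59 of 464 WT members, 18 of 143 HET members and 11 of 25 KO members. Among INS-only cells it was seen in 184 of 329, 64 of 116 and 64 of 128. The share was thus lower in members than in INS-only cells in WT and HET, and the 25 KO members are too few to place theirs.

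The processing enzymes split. PCSK1, the convertase that cleaves proinsulin, stood at 57.6 and 230.0 CPM in WT, 28.0 and 175 in HET and 181 and 218 in KO, and was 3.99-fold (3.54 to 4.52) lower in WT members and 6.26-fold (4.69 to 8.50) in HET members. PCSK2, the convertase that makes glucagon, stood at 154 and 148, 95.5 and 119.8, and 186 and 146, within 2-fold in every library. SYT13, a synaptotagmin of endocrine cells, was 3.21-fold (2.60 to 3.99) lower in WT and 4.07-fold (2.67 to 6.39) in HET. The granule and processing list had a median log2 ratio of 0.43 in WT and 0.39 in HET, with 2 of 17 and 3 of 18 genes at least 2-fold lower (2.10% and 4.68% of all genes). SCG2 and PCSK1N of the list stood at 2014 and 2318 CPM in WT members and 1207 and 1487 in INS-only cells.

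Other named genes higher in members included PPY, PYY, CYSLTR2 and CASR. PPY stood at 2045 and 383 CPM in WT and 1799.5 and 86.4 in HET, and PYY at 8665 and 1549 and at 4814 and 519.9. CYSLTR2, a receptor for cysteinyl leukotrienes, was 3.35-fold (2.84 to 3.97) higher in WT and 19.8-fold (11.6 to 36.7) in HET. CASR, the calcium-sensing receptor, was 3.68-fold (2.92 to 4.69) and 3.95-fold (2.69 to 5.94) higher. HAP1, a huntingtin-associated protein, PDLIM2, a PDZ and LIM domain protein, TPPP3, a tubulin-binding protein, and C2CD4B were 3.78-fold, 3.03-fold, 3.18-fold and 2.81-fold higher in WT. In KO members CASR and CYSLTR2 had no UMI, and C2CD4B was 2.56-fold (1.82 to 3.57) higher than in INS-only cells. Of the delta and PP cell genes, 7 of 13 were at least 2-fold higher in WT and 6 of 14 in HET (2.34% and 4.61% of all genes). PPY and CASR are among them, and so is SST, whose higher level the INS-only rule fixed: with INS-only cells of any SST, its log2 ratio was -2.03 in WT and -0.50 in HET.

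Genes lower in members included CHRNA3 and TPH1. CHRNA3, a nicotinic acetylcholine receptor subunit, was detected in 11 of 464 WT members and 116 of 329 INS-only cells, in 3 of 143 and 50 of 116 in HET and in 0 of 25 and 36 of 128 in KO. It was 16.9-fold (11.8 to 25.3) lower in WT and 43.0-fold (18.1 to 134) lower in HET. Of the autonomic neuron genes, 6 of 13 were at least 2-fold lower in WT, 7 of 13 in HET and 5 of 12 in KO (2.10%, 4.68% and 11.5% of all genes at 5 CPM), with medians of -0.91, -1.28 and -0.46. In KO the neuronal marker sum went the other way, with the medians of 23.9 in members and 17.1 in INS-only cells. CHRNA3, which is part of this sum, had no UMI in KO members, so the sum does not stand for each of its genes. PRPH (peripherin, an intermediate filament of peripheral neurons) was 3.03-fold (1.82 to 5.21) lower in WT and 4.71-fold (1.56 to 19.0) in HET. TPH1, the rate-limiting enzyme of serotonin synthesis in gut and islet, stood at 12.9 and 60.1 CPM in WT, 12.5 and 229.9 in HET and 17.4 and 768 in KO. Of the enterochromaffin genes, 4 of 9, 5 of 10 and 6 of 10 were at least 2-fold lower in WT, HET and KO (2.10%, 4.68% and 11.5% of all genes); SLC6A4, the serotonin transporter, went the other way at 39.5 and 11.5 CPM in WT and 28.5 and 3.09 in HET. The remaining named genes were PCDH7, SGCD, CALB2 (calretinin), PLXNA2 (a semaphorin receptor) and CXCL12 (a chemokine), at 5.94-fold, 5.90-fold, 3.91-fold, 3.86-fold and 3.83-fold lower in WT.

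Genes of beta cell function lay on both sides in WT and HET. Of those measured, in WT 1 of 19 were higher and 3 of 19 lower by 2-fold or more, and 2 of 19 and 3 of 19 in HET, with medians of 0.07 and 0.23. Of all genes, 2.34% were higher and 2.10% lower in WT, and 4.61% and 4.68% in HET. DLK1, a Notch-related protein of beta cells, stood at 443 and 1359 CPM in WT, 242 and 806 in HET and 288 and 583 in KO. SLC30A8, the zinc transporter of insulin granules, stood at 709 and 737 in WT and 487 and 283 in HET. Cell cycle genes had a median of 1.33 in WT, 5 of 9 of them at least 2-fold higher (2.34% of all genes), at low levels: UBE2C stood at 8.46 CPM and MKI67 at 7.47 in WT members. In HET the median was 0.18. The median cycling marker sum (MKI67 and TOP2A) per member was 0 in all 3 libraries. In WT members its 95th percentile was also 0 and its highest value 16.5 per 10000, so these 2 markers came from few cells.

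GCG-only cells were compared in WT and HET, since KO had 7. Of 3576 WT genes, 56 (1.57%) were higher and 84 (2.35%) lower, by 2-fold or more, in members, and in HET, with 20 GCG-only cells, 214 (5.82%) and 149 (4.06%) of 3674. With plain CPM the lower genes were 78.7% in place of 60.0% of those past 2-fold in WT and 73.0% in place of 41.0% in HET. Members held more of the beta cell products: SLC30A8 stood at 709 CPM in members and 193 in GCG-only cells of WT and at 487 and 97.1 in HET. IAPP stood at 736 and 202 and at 370.0 and 84.2, with 32.8% of its HET member UMIs in 1 cell. CHRM3, the M3 acetylcholine receptor, was 3.42-fold (2.48 to 4.84) higher in WT and 5.25-fold in HET, where it rested on 4 UMIs in GCG-only cells and the difference was under 2-fold with cells weighted alike. PYY, PPY, CRYBG3, PDK4 and AIF1 were the other named genes that were higher.

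Genes lower in members than in GCG-only cells included APOB and PITX1. APOB, the lipoprotein backbone, stood at 51.6 and 170.4 CPM in WT and 117 and 512 in HET. PITX1, a homeobox factor, was 3.59-fold (2.96 to 4.35) lower in WT and 2.77-fold (1.85 to 4.08) in HET. UGT2B11, CEBPD, IGFBP6, S100A14, EPAS1 and MESP1 completed this group. In granin-low barcodes of WT and HET, APOB stood at 373 and 500.5 CPM, PITX1 at 256 and 183, S100A14 at 532 and 264 and IGFBP6 at 317 and 247. GCG-only cells had higher liver and duct marker medians than members, 18.7 and 11.5 per 10000 in WT and 29.1 and 15.98 in HET, and lower endocrine medians, 60.8 and 58.4. Of the WT GCG-only cells 39 of 125 had under 3000 UMIs and 15 were granin-low, beside 37 and 2 of the 464 members, and 7 of 20 HET GCG-only cells lay among the highest 8% of doublet scores. The part of these cells and markers in the differences was not tested.

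Between libraries, HET members lay close to WT members. Of 3572 genes, 38 (1.06%) were higher and 28 (0.784%) lower, by 2-fold or more, in HET. The same comparison in INS-only cells gave 30 (0.829%) and 55 (1.52%) of 3620. PAX6 stood at 435 CPM in HET members and 683 in WT members, 1.57-fold (1.46 to 1.69) lower. PAX4 was 1.23-fold (0.862 to 1.72) higher in HET, with an interval that held 1. IAPP stood at 736 and 370.0 CPM in WT and HET members and at 290.5 and 2.57 in INS-only cells.

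Several named differences between HET and WT were also present in the libraries' other cells. FOSB, an immediate early gene of the AP-1 family, stood at 11.9 CPM in WT members and 126 in HET members, at 11.9 and 151 in INS-only cells and at 30.6 and 108 in granin-low barcodes. PLCG2, a phospholipase, stood at 528 and 135 in members, 541 and 116 in INS-only cells and 534 and 143 in granin-low barcodes. NNAT (neuronatin, an imprinted membrane protein) stood at 130.3 and 15.6 in members and 146 and 33.9 in INS-only cells, but at 28.5 and 25.1 in granin-low barcodes. The difference in FOSB and PLCG2 thus ran through all 3 kinds of barcode, and that in NNAT through both INS classes. TXNIP, GDAP1L1, FJX1, GRIK1, C1QTNF4, SLC17A6 and LSAMP were lower in HET members by 2.76-fold, 2.85-fold, 2.84-fold, 2.95-fold, 2.76-fold, 2.63-fold and 2.52-fold, and in the same direction in INS-only cells. FOS and JUN, of the same family as FOSB, stood at 148 and 161 CPM in WT members and 449.9 and 372 in HET members. Immediate early genes had 4 of 15 at least 2-fold higher in HET members (2.98% of all genes), with a median of 0.63.

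A set of secreted and antigen-related genes was higher in HET members than in WT members. SERPINA1, a serum protease inhibitor, stood at 68.5 and 307 CPM in WT and HET members and 35.0 and 64.8 in INS-only cells, and was found in 95 of 464 and 43 of 143 members. CD74, the HLA class II invariant chain, stood at 70.0 and 355 in members and 57.7 and 164 in INS-only cells, and was found in 176 of 464 and 102 of 143 members. CXCL1, a chemokine, stood at 54.8 and 564 in members and at 68.7 and 35.0 in INS-only cells, so the 2 classes differed between the libraries in opposite directions. APOM, an apolipoprotein, was 4.44-fold (3.26 to 6.06) higher in HET members, and APOC3, another, 3.37-fold (3.05 to 3.72). GAST (gastrin) stood at 1905 and 6778 CPM in members and 933 and 2617 in INS-only cells, and 84.4% of its HET INS-only UMIs came from 1 cell.

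Some of these rested on few cells or matched the level in other cells. ANXA1, an annexin, stood at 2.65 CPM in WT members and 87.2 in HET members, with 58.9% of the HET UMIs in 1 cell, and at 19.5 and 87.4 in granin-low barcodes. FABP1, a fatty acid binding protein of gut and liver, stood at 26.4 and 87.2 CPM, with 73.2% of the HET UMIs in 1 cell. With the highest 8% of doublet scores removed or the hormone minimum at 50, the FABP1 log2 difference between HET and WT members was 0.77 or -0.34, in place of 1.72. SPP1 stood at 165 and 593 in members and at 1164 and 1916 in granin-low barcodes, far above either. MMP1, a collagenase, stood at 51.6 and 14.0 CPM and was found in 32 of 464 WT members and 10 of 143 HET members.

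Several products of beta and PP cells were not detected, or barely so, in KO members. IAPP had no UMI in the 25 KO members and stood at 736 CPM in WT members, at least 98.8-fold lower with the KO sum set at 3 counts. SLC30A8 had no UMI either, against 709 CPM and 386 of 464 cells in WT, at least 95.1-fold lower. In KO INS-only cells SLC30A8 stood at 15.6 CPM and was 47.2-fold (32.4 to 71.7) lower than in WT INS-only cells, so it was low in both INS classes of KO. ERO1B, the endoplasmic reticulum oxidase of beta cells, stood at 2097, 1582 and 127 CPM in WT, HET and KO members and at 1917, 1351 and 308 in INS-only cells. FFAR1, the fatty acid receptor, had no UMI in KO members and stood at 143 CPM in WT members, at least 19.2-fold lower.

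Of 3615 genes, 125 (3.46%) were higher and 280 (7.75%) lower, by 2-fold or more, in KO than in WT members, and in INS-only cells the counts were 85 (2.32%) and 158 (4.31%) of 3662. With plain CPM the split in members turned, with lower genes 38.0% in place of 69.1% of those past 2-fold, as the median log2 ratio moved from -0.09 to 0.21. Both edited libraries were set against the same WT library. Of the beta cell function genes 11 of 19 were at least 2-fold lower in KO members (14.5% of all genes at 5 CPM) and 12 of 19 in KO INS-only cells (7.64%), with medians of -1.21 and -1.22. KCNJ11, a subunit of the ATP-sensitive potassium channel, stood at 22.4, 19.7 and 4.97 CPM in WT, HET and KO members. CHRM3 stood at 99.2, 68.0 and 9.93. Of the islet and gut hormones 12 of 19 were at least 2-fold lower in KO members (14.5% of all genes) and 12 of 19 in KO INS-only cells (7.64%). This list holds INS, GCG and GHRL, which cut both classes, and SST, which cut the INS-only class. GCG and SST were among those lower in KO members, with log2 ratios of -2.27 and -3.65.

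PPY stood at 2045 CPM in WT members and 4.97 in KO members, where it rested on 2 UMIs and gave a ratio of 412 with an interval of 114 to 3401. PYY stood at 8665, 4814 and 447 CPM in WT, HET and KO members, and 72.8% of its KO UMIs came from 1 cell. NTS (neurotensin, a gut peptide) stood at 1431, 659.5 and 39.7 CPM in members, and at 1286, 781 and 255 in granin-low barcodes, so its order over the libraries was the same in both. NKAIN4 had no UMI in KO members and 272 CPM in WT members, at least 36.6-fold lower. CSGALNACT1, CXCL6 and RFLNB each rested on 1 UMI and ANKRD1 on 2 in KO members, with ratios of 30.7 (5.49 to 1217), 24.3 (4.34 to 964), 21.0 (3.74 to 832) and 19.9 (5.48 to 165).

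**Figure D5:**
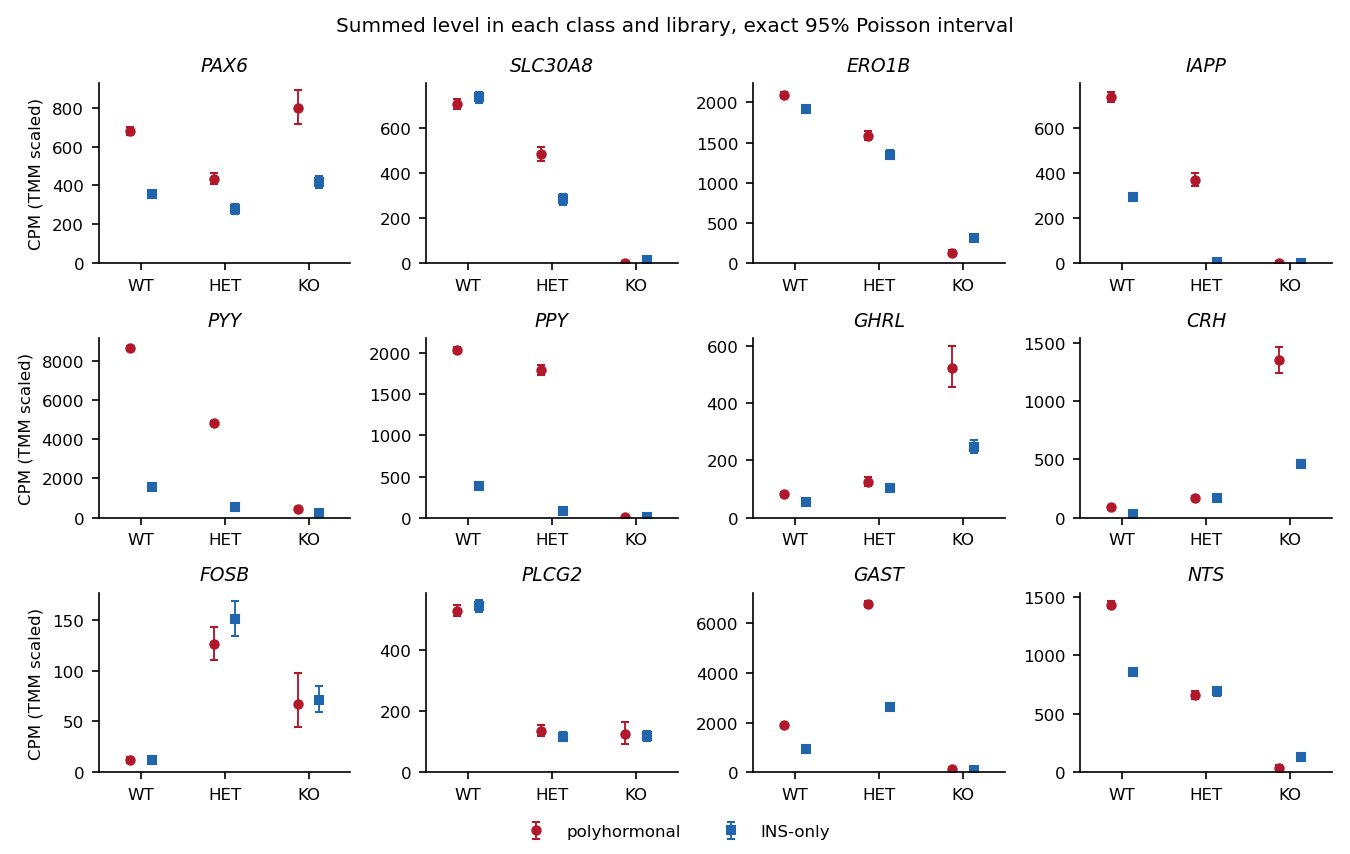
TMM-scaled CPM of 12 genes in polyhormonal (red circles) and INS-only (blue squares) cells of the WT, HET and KO libraries, with the exact 95% Poisson interval of the summed count. SLC30A8 and IAPP have no UMI in KO members, FOSB and PLCG2 differ between WT and the other libraries in both classes, and CRH and GHRL are highest in KO.

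Genes higher in KO members included a peptide hormone and early endocrine factors. CRH (corticotropin-releasing hormone) was found in 103 of 464 WT, 44 of 143 HET and 23 of 25 KO members and stood at 88.3, 166 and 1351 CPM. In INS-only cells CRH stood at 29.5, 168 and 464 CPM, and in granin-low barcodes at 1.57, 1.76 and 3.07. GHRL, held under 25 per 10000 by the rule, stood at 81.6, 125 and 524 CPM in members and 55.6, 102 and 248 in INS-only cells, and ACSL1, an acyl-CoA synthetase listed with epsilon cell genes, at 18.8, 32.2 and 124. PCP4, a calmodulin regulator, was found in 279 of 464 WT and 25 of 25 KO members and was 6.53-fold (6.03 to 7.06) higher in KO, beside 1.19-fold in INS-only cells.

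Of the endocrine progenitor genes 6 of 14 were at least 2-fold higher in KO members (6.65% of all genes at 5 CPM), beside 1 of 15 in INS-only cells (4.33%). INSM1, a zinc finger factor of newborn endocrine cells, stood at 215, 232 and 544 CPM in WT, HET and KO members. NKX2-2, a homeobox factor shared by islet cell types, stood at 65.4, 86.1 and 189. BTBD17 stood at 129, 257 and 735, the steepest of the 3. NKX6-1, PAX4 and PCSK1 were also higher in KO than in WT members, by 2.72-fold (1.64 to 4.31), 2.63-fold (1.59 to 4.17) and 3.15-fold (2.41 to 4.06), on 22, 22 and 73 UMIs. For PAX4 this was under 2-fold with cells weighted alike or with members of SST under 25. Against INS-only cells of their own library, PCSK1 was 1.20-fold (0.932 to 1.56) lower in KO members.

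Other named genes of KO members rested on few cells. LEPR, the leptin receptor, had 57.5% of its KO UMIs in 1 cell, CRISPLD1 81.8%, CCNA1 (a cyclin) 51.6% and TNP1 39.3%. PCDH11X, a protocadherin with a near-identical paralog, was found in 10 of 25 KO members, and AC090679.1 in 10 of 25. These 6 genes were 7.87-fold, 6.86-fold, 7.48-fold, 10.5-fold, 9.14-fold and 7.65-fold higher than in WT members.

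The unfolded protein response, by which cells adjust protein folding to the load of secreted protein, was described by 3 gene lists. Of the 30 genes of the IRE1-XBP1 branch, none was 2-fold apart between members and INS-only cells in WT or HET, where the medians were 0.12 and 0.11. Against WT members, 2 of 30 were at least 2-fold lower in HET (3.74% of all genes at 5 CPM), ERN1 and KDELR3, and 5 of 30 in KO, near the share of all genes there, with medians of -0.20 and -0.51. ERN1, which encodes the sensor IRE1, stood at 28.5, 10.4 and 7.45 CPM in WT, HET and KO members and at 25.9, 14.9 and 11.6 in INS-only cells. It was 2.75-fold (1.73 to 4.62) lower in HET members, and the KO value rested on 3 UMIs, a ratio of 3.83 with an interval of 1.29 to 18.8. XBP1, the factor that IRE1 activates by splicing, stood at 248, 223 and 144 CPM. The PERK-ATF4 and ATF6 lists had medians of 0.20 and -0.21 in HET against WT members and -0.38 and -0.33 in KO, beside -0.01 and -0.12 over all genes.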

How the data were processed

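Cell barcodes by gene matrices of 10x Genomics droplet libraries were deposited for 3 genotypes, 1 library each. Values are raw UMI counts, made by the authors with Cell Ranger 6.1.2, per the file headers. GRCh38, Cell Ranger and Seurat stand in the submitters' processing notes. The sources used here do not name the alignment settings or the annotation release. The deposited files held 9667 WT, 9628 HET and 9726 KO barcodes with 140068492, 136834433 and 145948590 UMIs; the limits on UMIs, genes and mitochondrial share left 8488, 8294 and 8681. Of 33538 genes in the files, 33456 were found in GENCODE 29, which gave the coordinates.

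Counts were summed over the cells of each class with at least 20 cells (scanpy 1.11.5, pandas 2.3.3, Python 3.11.15) and turned into CPM with TMM factors (edgeR 4.0.16, R 4.3.3; no count model was fitted, since a class has 1 library per genotype). Ratios of class sums used a minimum of 50 CPM in 1 of the classes and 2-fold, and gene lists a minimum of 5 CPM. A sum of 0 was set at 3 counts for a bound. Intervals are exact (scipy 1.17.1): Poisson for levels, binomial for shares, conditional binomial for ratios. PCR copies are collapsed by UMI, but cells of a library are not replicates. Scrublet was run with an expected doublet rate of 0.08 and no barcode was removed. Genes named are the 12 each way most apart from INS-only cells in both WT and HET, 8 each way from GCG-only cells, 10 each way between libraries, 6 each way over the GCG to INS ratio, up to 4 per gene list, and the hormones with PAX6. Genes of the lists that are not reported here were left out of the list counts. The members, lists and rules were chosen with earlier results of these data known. Alternatives were plain CPM, a minimum of 20 CPM, a hormone minimum of 50, stricter barcode limits (3000 UMIs, 10% mitochondrial), removal of the top 8% of doublet scores, cells weighted alike, INS-only cells with any SST and, chosen after seeing the data, members with SST under 25. The calculations were run on simulated Poisson counts, the model that the intervals assume. The simulated counts lack the spread between cells and between libraries, so they check the arithmetic only. The readthrough gene INS-IGF2 shares INS sequence, and PCDH11X has a near-identical paralog, so their reads may be split by the counting.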

Additional observations from a re-analysis of the deposited data

Results flagged for a closer look

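FABP1 differed in direction between libraries. Its log2 ratio of polyhormonal over INS-only cells was -1.04 in WT, 2.08 in HET and -3.86 in KO. APOC3 had ratios of 1.05 in HET and -1.27 in KO. With 1 library per genotype these differences were not tested, and 73.2% of the FABP1 UMIs of HET members came from 1 cell.

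Barcodes outside the limits also held both hormones. In WT, 16 barcodes with over 40000 UMIs had INS and GCG at 25 or more per 10000 UMIs. Kept barcodes with INS, GCG and GHRL all at 25 or more, which the limit on GHRL leaves out, numbered 3 in WT, 6 in HET and 7 in KO.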

How the results depend on the processing

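The 24 genes named for polyhormonal against INS-only cells kept at least 2-fold in WT and HET under every alternative run. No paired analysis was possible because each genotype is 1 library and the labels carry no replicate numbers, and no library could be left out. The share of members was 4.24% in WT and 1.42% in HET with a hormone minimum of 50, and 4.96% and 1.43% under stricter barcode limits. With a minimum of 20 CPM, genes at least 2-fold higher and lower than in INS-only cells numbered 108 and 102 in WT, 165 and 180 in HET and 239 and 507 in KO. Against GCG-only cells they numbered 153 and 195 in WT and 682 and 369 in HET. Between members they numbered 94 and 98 for HET over WT and 338 and 791 for KO over WT. With plain CPM they were 49 and 102 in HET against INS-only cells, 30 higher in WT against GCG-only cells, 106 and 286 in HET against GCG-only cells, and 254 and 156 for KO over WT members. With cells weighted alike they were 121 higher in KO against INS-only cells, 109 and 191 in WT against GCG-only cells and 350 and 1107 in HET against GCG-only cells. Without the top 8% of doublet scores, 221 were lower in KO against INS-only cells and 127 in WT against GCG-only cells. With a hormone minimum of 50, 44 were lower in HET than in WT members. The cause was not tested beyond the fewer cells or lower counts these settings leave.

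Directions turned for few genes. With INS-only cells of any SST, the log2 ratio of SST was -2.03 in WT and -0.50 in HET. In KO it was -1.07 for members with SST under 25. FABP1 in HET against INS-only cells was -0.029 with a hormone minimum of 50 and -0.28 without the top doublet scores, and HET over WT it was -0.34 at that minimum. NTS in KO against INS-only cells was 0.22 under stricter limits and 0.85 without the top doublet scores, where S100A14 and SPP1 for KO over WT were 0.080 and 0.56. KO members at a hormone minimum of 50, KO GCG-only cells, and HET GCG-only cells under stricter limits or without the top doublet scores had under 20 cells and gave no value. The KO values rest on 25 cells, so genes with few UMIs there are not resolved at this depth.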
